A study of Saccharomyces cerevisiae with 8 samples.

Results

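The 10 genes described here encode the enzymes and subunits of trehalose metabolism and of the route that supplies its precursor UDP-glucose. They were chosen by function, as the rows of the array table for *TPS1* (YBR126C), *TPS2* (YDR074W), *TPS3* (YMR261C), *TSL1* (YML100W), *NTH1* (YDR001C), *NTH2* (YBR001C), *ATH1* (YPR026W), *PGM1* (YKL127W), *PGM2* (YMR105C) and *UGP1* (YKL035W), 10 of the 6212 ORFs of the table. Their transcripts were compared in untreated *Saccharomyces cerevisiae* cells of the BY4741 background, growing in log phase in YPD rich medium. The *ptc1 ptc6* double mutant carries *ptc1::NAT* and *ptc6::kanMX4*, the *ptc6* mutant carries *ptc6::kanMX4*, and the wild type (wt) carries neither. Both deleted genes encode protein phosphatases of type 2C. The data are 8 arrays of yeast ORFs, on which cDNA of a mutant and cDNA of wt were hybridised together with the dyes Cy3 and Cy5. Each mutant has 4 arrays, made of 2 biological replicates with the dyes exchanged between the 2 arrays of a replicate. Values are log2 ratios of mutant over wt, so that 1 stands for a 2-fold higher and -1 for a 2-fold lower level in the mutant. A *ptc1* single mutant is not among these arrays.

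Trehalose is a disaccharide of glucose that yeast accumulates when growth slows or when cells meet heat, desiccation or other stress, and that is kept low in cells growing fast on glucose. It is made in a cytosolic complex from UDP-glucose and glucose 6-phosphate: Tps1 joins them into trehalose 6-phosphate, Tps2 removes the phosphate, and Tps3 and Tsl1 are regulatory subunits. Trehalase Nth1 and its paralog Nth2 split trehalose in the cytosol at neutral pH, whereas Ath1 is the acid trehalase. Phosphoglucomutases Pgm1 (minor isoform) and Pgm2 (major isoform) turn glucose 6-phosphate into glucose 1-phosphate, from which Ugp1 makes UDP-glucose. UDP-glucose also feeds glycogen, cell wall glucan and protein glycosylation.

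*PTC1* lay between -3.43 and -1.95 on the 4 *ptc1 ptc6* arrays and between -0.13 and 0.41 on the 3 *ptc6* arrays with a value. *PTC6* lay at -4.73 and -3.16 on the 2 *ptc1 ptc6* arrays with a value and between -2.66 and -2.18 on 3 *ptc6* arrays. Between 4050 and 4710 ORFs had a value on a *ptc1 ptc6* array and between 4308 and 5537 on a *ptc6* array. Genes are not independent replicates, but over them the replicate means correlated with Pearson r = 0.76 in *ptc1 ptc6* and with r = 0.12 in *ptc6*. *ptc6* replicate 2 had r = -0.30 and -0.41 against the *ptc1 ptc6* replicates, whereas *ptc6* replicate 1 had r = 0.26 and 0.27. Between the dye-swapped arrays of a replicate, r was 0.305 and 0.407 in *ptc6* replicates 1 and 2. In *ptc1 ptc6* it was 0.492 and 0.591. Which *ptc6* replicate is the unusual one was not tested. The direction of *ptc6* replicate 2 was kept because the labels give the dye of each channel and *PTC6* was low there too. Values in *ptc6* are therefore given for each replicate.

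All 10 genes are in the table, but not all were measured. Of these, *TPS1*, *TPS2*, *TPS3*, *NTH1*, *PGM1*, *PGM2* and *UGP1* had values on all 8 arrays. *TSL1* had values on the 4 *ptc1 ptc6* arrays and on the 2 arrays of *ptc6* replicate 2. *NTH2* had a value on 1 *ptc6* array (0.08) and *ATH1* on another (-0.09), and neither had a value in *ptc1 ptc6*. The breakdown of trehalose is thus represented by *NTH1* alone.

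**Figure D1:**
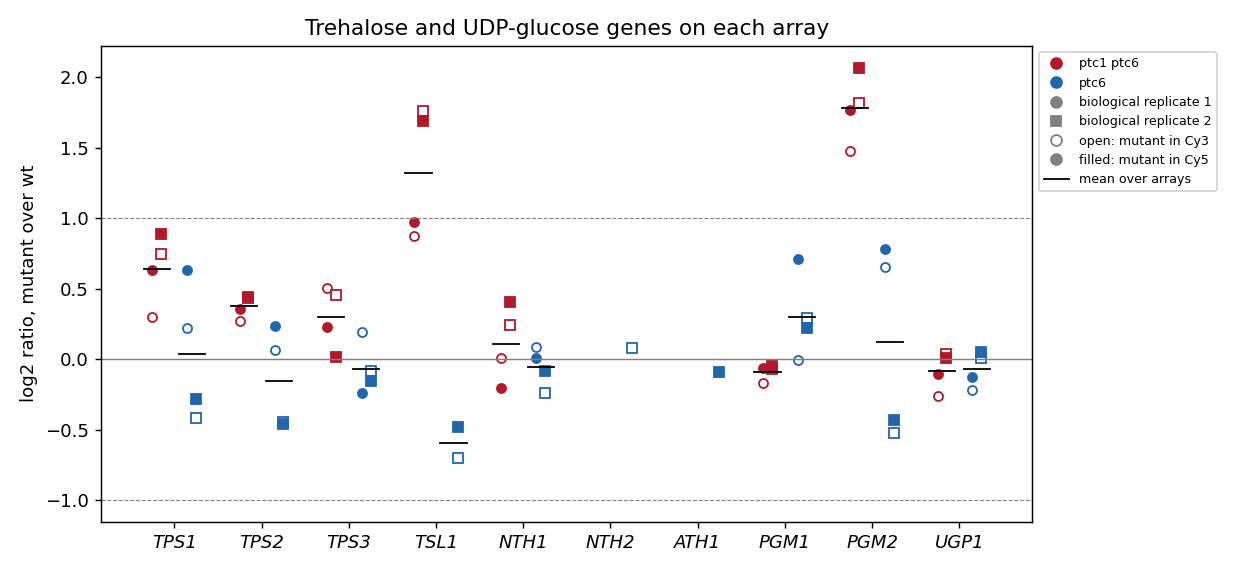
Log2 ratio of mutant over wt for each of the 10 genes on each array with a value, *ptc1 ptc6* in red left of *ptc6* in blue, circles for biological replicate 1, squares for replicate 2, open with the mutant in Cy3 and filled with the mutant in Cy5; black bars are means over the arrays where more than 1 has a value, and dashed lines mark 2-fold. *PGM2* and *TSL1* stand highest in *ptc1 ptc6*, at 0.87 or more on each array, and *PGM2*, *TPS1* and *TPS2* lie above 0 in *ptc6* replicate 1 and below 0 in replicate 2.

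In *ptc1 ptc6* cells, 2 of the 8 genes that could be tested were higher than in wt and none was lower. They were *PGM2*, of precursor supply, and *TSL1*, of synthesis. The test was limma (adjusted p under 0.05), by which 14.1% of all 4596 genes tested changed, 5.64% upwards and 8.49% downwards. By the 2-fold rule of the study's methods the same pair of genes was past 2-fold, and none of the other 6, where 1.98% of 4754 genes were past it and 1.68% were higher by it. The study listed both as induced on these same arrays, so their calls are no independent evidence. The median log2 ratio was 0.34 over the 8 genes and -0.05 over all genes tested. RNA came from whole cultures, so that a change in every cell and a change in a part of the cells cannot be told apart. Equal amounts of total RNA were compared, so that a change in the amount of RNA per cell would not show.

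Among the synthesis genes, *TSL1* rose most. With the mutant in Cy3 and Cy5 it had 0.87 and 0.97 in *ptc1 ptc6* replicate 1 and 1.76 and 1.69 in replicate 2. The replicates did not overlap, but on each array *TSL1* stood at or above the 98th percentile of the ORFs measured there. Its mean was 1.32 ± 0.57 (SD, n = 2), with a 95% interval of 0.81 to 1.84, or 1.75-fold to 3.57-fold, and an adjusted p of 0.0270 in limma. The limma interval uses a spread drawn partly from all genes, and is narrower than these 2 replicates alone would give. Without *ptc1 ptc6* replicate 2 *TSL1* had 0.92 and was no longer past 2-fold. In that setting it could not be tested, since it had no replicate pair left.

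*TPS1*, the synthase itself, had 0.30 and 0.63 in replicate 1 and 0.75 and 0.89 in replicate 2 of *ptc1 ptc6*. It was above 0 on each of the 4 arrays, with a mean of 0.64 ± 0.25 (SD, n = 2) or 1.56-fold and a 95% interval of 0.17 to 1.12. It did not pass in limma (adjusted p of 0.0751). It passed in 4 of 9 distinct alternative fits, over a range of 0.00792 to 0.333. Fitting *ptc1 ptc6* alone and leaving out either *ptc6* replicate are the same fit for this gene and gave 0.0401. Without *ptc1 ptc6* replicate 1 it was 0.82 with an adjusted p of 0.0411, but there the spread comes from the *ptc6* replicates alone and the lone replicate is assumed to vary like them.

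*TPS2*, the phosphatase gene, had the narrowest range over arrays among the synthesis genes. It had 0.27, 0.35, 0.43 and 0.44 on the 4 *ptc1 ptc6* arrays, a mean of 0.37 ± 0.09 (SD, n = 2) and an adjusted p of 0.155 in limma. The fit shares the spread between the mutants, and in *ptc6* the replicate means of *TPS2* had an SD of 0.43. With each mutant fitted alone its adjusted p was 0.0557 in limma. *TPS3*, the other regulatory subunit, had a mean of 0.30 ± 0.09 (SD, n = 2) and an adjusted p of 0.102. Its values followed the dye: with the mutant in Cy3 they averaged 0.48, with the mutant in Cy5 0.12. On each array *TSL1* lay above *TPS3*, by 0.37 to 1.68 on the log2 scale.

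In all, 4 of the 4 synthesis genes had means above 0 in *ptc1 ptc6*, 1 passed the adjusted threshold and 3 had an unadjusted p under 0.05. At that unadjusted threshold 34.0% of all genes tested passed and 13.1% were higher. With *PGM2*, the synthesis genes make 5 of the 8 measured genes that were above 0 on 4 of 4 *ptc1 ptc6* arrays, where 15.6% of 3745 genes with 4 values were. *TPS3* was barely so, at 0.011 in replicate 2 with the mutant in Cy5. *PGM1* was below 0 on 4 of 4 arrays, as were 29.9% of those genes.

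The precursor genes split. *PGM2* had 1.47 and 1.77 in *ptc1 ptc6* replicate 1 and 1.82 and 2.07 in replicate 2, each past 2-fold and each above the 99th percentile of its array. Its mean was 1.78 ± 0.23 (SD, n = 2) or 3.44-fold, with a 95% interval of 1.14 to 2.42 and an adjusted p of 0.0270 in limma. It ranked 17 of 4754 genes by the mean over arrays, and *TSL1* ranked 40. *PGM2* passed in each of the 9 distinct alternative fits, with means between 1.62 and 1.94, and in 2 of these, without a *ptc1 ptc6* replicate, the spread came from *ptc6* alone.

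*PGM1*, which encodes the minor isoform, had -0.17, -0.06, -0.07 and -0.05 on the same arrays, with a mean of -0.09 ± 0.04 (SD, n = 2) and a 95% interval of -0.33 to 0.16. *PGM2* exceeded *PGM1* by 1.64 to 2.12 within each *ptc1 ptc6* array. The 2 genes are paralogs, and the sequences on the spots are not given in the sources used here, so how far cDNA of one binds the spot of the other was not tested. *UGP1*, the next step of the route, had -0.27, -0.10, 0.03 and 0.01, with a mean of -0.08 ± 0.15 (SD, n = 2) and a 95% interval of -0.36 to 0.19. Its interval and that of *PGM1* lie wholly below the interval of *PGM2*.

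*NTH1* had 0.00 and -0.21 in *ptc1 ptc6* replicate 1 and 0.24 and 0.40 in replicate 2. The replicates lay on either side of 0 by their means, at -0.10 and 0.32, and the overall mean of 0.11 ± 0.30 (SD, n = 2) did not pass in limma (adjusted p of 0.616). Its 95% interval in limma, -0.22 to 0.44, stays under 2-fold. That interval uses a spread shared with *ptc6* and drawn partly from all genes. These 2 replicates alone would give a wider one. *TPS1* was above *NTH1* on each of the 4 arrays, by 0.30 to 0.84.

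Ordered by their means in *ptc1 ptc6*, the genes ran *PGM2*, *TSL1*, *TPS1*, *TPS2*, *TPS3*, *NTH1*, *UGP1* and *PGM1*, at ranks 17, 40, 199, 487, 639, 1400, 2644 and 2703 of 4754. Neighbours in this order whose means differ by less than the larger SD of the pair were *PGM2* and *TSL1*, *TPS2* and *TPS3*, *TPS3* and *NTH1*, *NTH1* and *UGP1*, and *UGP1* and *PGM1*. By class, the median of the tested genes was 0.51 for synthesis, 0.11 for breakdown (1 gene) and -0.08 for precursor supply, in which *PGM2* stood alone.

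**Figure D2:**
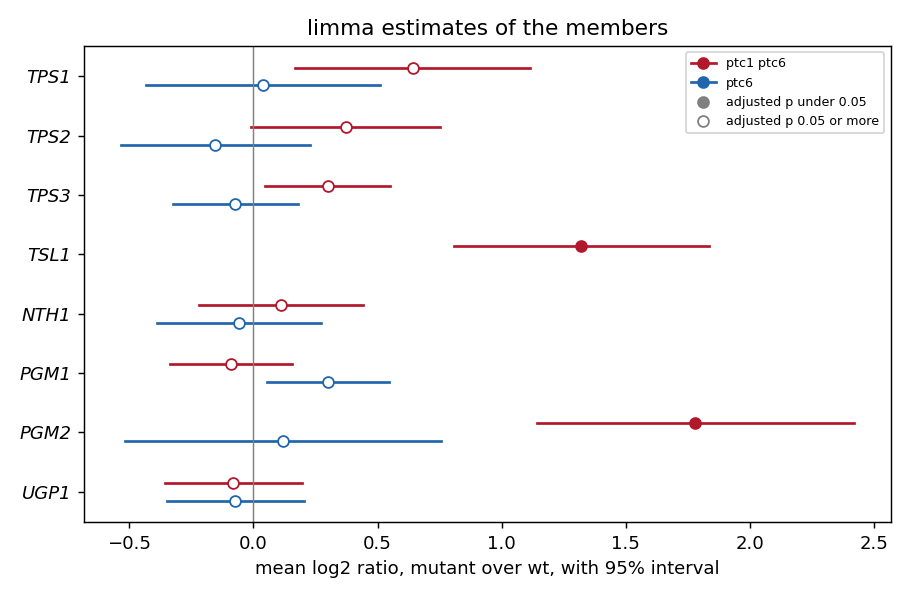
Mean log2 ratio of mutant over wt in limma with its 95% interval for the 8 genes tested in at least 1 mutant, *ptc1 ptc6* in red above *ptc6* in blue, filled points for an adjusted p under 0.05. The filled points are *TSL1* (1.32) and *PGM2* (1.78) in *ptc1 ptc6*, and *TSL1* has no *ptc6* estimate because it was measured in 1 replicate there.

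**Figure D3:**
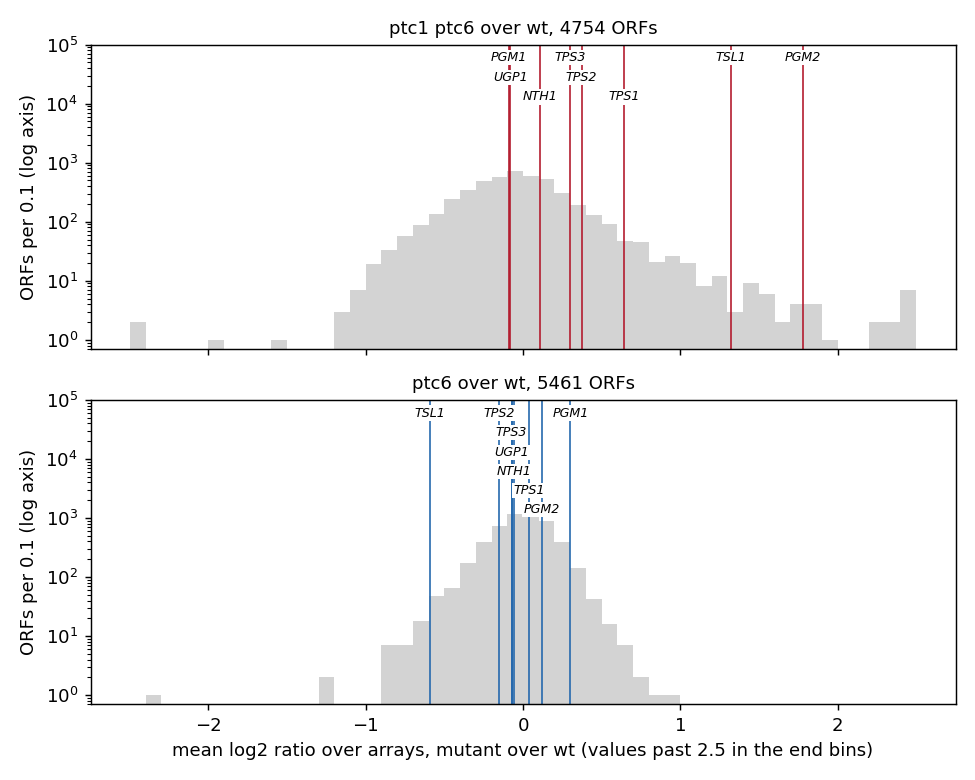
Number of ORFs (log axis) by mean log2 ratio over arrays, in bins of 0.1, for *ptc1 ptc6* (top, 4754 ORFs) and *ptc6* (bottom, 5461 ORFs), with lines at the members with values on at least 2 arrays. *PGM2* and *TSL1* lie in the upper tail in *ptc1 ptc6*, while in *ptc6* the members lie between -0.59 and 0.30.

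In *ptc6* cells, none of the 7 genes that could be tested passed in limma, where 0% of 4824 genes did (386 at an unadjusted p under 0.05). The deleted gene *PTC6* itself, with a mean of -2.34, did not pass there (adjusted p of 0.407 in limma). Its replicate means were -2.27 and -2.42, but the fit shares the spread with *ptc1 ptc6*, where they were -3.16 and -4.73. Not passing in *ptc6* therefore does not show that a gene was unchanged. *PGM1* alone of the 7 had an unadjusted p under 0.05, where 8.00% of all genes had one and 4.52% were higher with one. None of the 8 genes with values on at least 2 arrays was past 2-fold, by which 0.0549% of 5461 genes were lower and 0% higher. For several genes the replicates were unlike, so their values are given separately.

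*PGM2* had 0.65 and 0.78 in *ptc6* replicate 1 and -0.52 and -0.43 in replicate 2. The dye-swapped arrays of a replicate lay within 0.13 of each other, whereas the replicate means, 0.72 and -0.48, lay on opposite sides of 0. The mean of 0.12 ± 0.84 (SD, n = 2) describes neither replicate, and its 95% interval was -0.52 to 0.76.

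*TPS1* had 0.22 and 0.63 in replicate 1 and -0.42 and -0.28 in replicate 2, with a mean of 0.04 ± 0.55 (SD, n = 2). *TPS2* had 0.07 and 0.23 in replicate 1 and -0.45 and -0.46 in replicate 2, with a mean of -0.15 ± 0.43 (SD, n = 2). *NTH1* had 0.09 and 0.01 in replicate 1 and -0.24 and -0.09 in replicate 2. These 3 genes and *PGM2* were above 0 on both arrays of replicate 1 and below 0 on both of replicate 2. That makes 4 of the 7 genes with 4 values, where 5.69% of 4148 genes did so, a pattern searched for after the values were seen. None of the 7 was above 0 or below 0 on 4 of 4 *ptc6* arrays, as 13.8% and 7.14% of these 4148 genes were.

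*TSL1*, measured in *ptc6* replicate 2 only, had -0.70 and -0.48 there, at percentiles 0.713 and 3.68 of those arrays. *TPS3* had values of both signs within replicate 1 (0.19 and -0.24) and -0.08 and -0.16 in replicate 2. *UGP1* had -0.22 and -0.12 in replicate 1 and 0.00 and 0.05 in replicate 2. Neither lay beyond 0.25 on any *ptc6* array.

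*PGM1* had -0.01 and 0.71 in *ptc6* replicate 1 and 0.29 and 0.22 in replicate 2. Its mean of 0.30 ± 0.07 (SD, n = 2) had a 95% interval of 0.05 to 0.55 and an adjusted p of 0.602 in limma. The replicate means were close, at 0.35 and 0.25, but the 2 arrays of replicate 1 differed by 0.72. Within the arrays, *PGM2* exceeded *PGM1* by 0.66 and 0.07 in replicate 1 and was below it by 0.81 and 0.65 in replicate 2.

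The *ptc6* replicates also differed in some genes outside the pathway. Over 9 genes of the general stress response (*HSP12*, *HSP26*, *HSP42*, *HSP104*, *CTT1*, *TFS1*, *SSA4*, *GRE3* and *PNC1*), the median of the replicate means was 0.36 and 0.74 in *ptc1 ptc6* replicates 1 and 2, and 0.11 and -0.35 in *ptc6* replicates 1 and 2. Above 0 were 6 and 8 of the 9 in *ptc1 ptc6*, and 5 and 2 of the 9 in *ptc6*. *HSP26*, a small heat shock protein gene, was between 3.86 and 4.03 on the *ptc1 ptc6* arrays, had 1.33 and 0.91 in *ptc6* replicate 1 and -0.51 and -0.45 in replicate 2. *HSP26*, *TFS1* and *PNC1*, 3 of the 9, were above 0 on both arrays of *ptc6* replicate 1 and below 0 on both of replicate 2. Of 4148 genes with 4 values, 5.69% did so, and *SSA4* had no value in replicate 1 with the mutant in Cy5. *HSP12*, another small heat shock protein gene, was between 2.97 and 4.01 in *ptc1 ptc6* but had 0.19 and 0.03 in *ptc6* replicate 1 and 0.28 and 0.23 in replicate 2, and *HSP104* was below 0 on all 4 *ptc6* arrays. *CTT1*, encoding cytosolic catalase, was between -0.35 and -0.14 in *ptc1 ptc6*, so that not all of these genes were high there. Cytosolic ribosomal protein genes ran the other way, with medians of -0.66 and -0.76 in the *ptc1 ptc6* replicates and of -0.21 and 0.25 in the *ptc6* replicates. In *ptc6* replicate 1 the median was -0.38 with the mutant in Cy3 (6 of 129 above 0) and -0.03 with it in Cy5 (55 of 127 above 0). The part of this wider shift in the values of the trehalose genes was not tested.

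Between the mutants, no gene of the pathway passed in limma. This comparison sets cells without both phosphatases against cells without Ptc6, but the sets were hybridised separately and the labels do not say whether they share wt RNA. Of 4361 genes tested, 0.206% passed, 0.161% with the higher level in *ptc1 ptc6* and 0.0459% with the lower. *PGM2* had the largest difference of the 7 genes tested, 1.66 (SE 0.37, 95% interval 0.76 to 2.57, adjusted p of 0.0966). It passed in 5 of 12 alternative fits, over a range of adjusted p of 0.00347 to 0.212. In 2 of these 5 a *ptc1 ptc6* replicate was left out and the spread came from *ptc6* alone. The rest took the biological replicate as a random block, or the replicate number as a block, as labelled or crossed. Both pairings cannot hold at once. Without *ptc6* replicate 1 its difference was 2.26, and without *ptc6* replicate 2 it was 1.07. Among the choices tried, leaving out a *ptc6* replicate moved this value most.

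*TPS1* differed by 0.60 (95% interval -0.07 to 1.27), *TPS2* by 0.53 (-0.01 to 1.07) and *TPS3* by 0.37 (0.01 to 0.73), all higher in *ptc1 ptc6*. Without *ptc6* replicate 1 the differences were 0.99 for *TPS1* and 0.83 for *TPS2*, and without *ptc6* replicate 2 they were 0.22 for each. *PGM1* differed by -0.39 (-0.74 to -0.04), *NTH1* by 0.17 (-0.30 to 0.63) and *UGP1* by -0.01 (-0.40 to 0.38). The adjusted p of these 6 genes lay between 0.170 and 0.976. *PGM2*, *PGM1* and *TPS3* had an unadjusted p under 0.05, where 24.3% of all genes had one and 7.82% were higher with one, as *PGM2* and *TPS3* were. *PGM2* and *TPS2* were higher on every *ptc1 ptc6* array than on any *ptc6* array, which 5.36% of 3436 genes with 8 values were. *PGM1* was lower on every *ptc1 ptc6* array than on any *ptc6* array, which 16.9% were. The nearest *ptc1 ptc6* and *ptc6* values were 1.47 and 0.78 for *PGM2*. They lay close for *TPS2* (0.27 and 0.23) and *PGM1* (-0.05 and -0.01).

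Genes next to the pathway were taken as a list of 24, covering hexose phosphorylation, trehalase regulators and trehalose transport, glycogen synthesis and breakdown, and other users of UDP-glucose. Of these, 19 could be tested, and in *ptc1 ptc6* 5 were higher and none lower in limma (background 5.64% higher, 8.49% lower), with a median of 0.35. The study listed *GLC3*, *GSC2*, *GLK1*, *HXK1* and *GDB1* as induced on these arrays, so that their direction is no independent evidence. In *ptc6* none of the 19 passed (1 at an unadjusted p under 0.05), and the median was -0.00.

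*GLC3*, the glycogen branching enzyme gene, had 1.61 and 1.47 in *ptc1 ptc6* replicate 1 and 1.71 and 1.48 in replicate 2. The 4 arrays lay close together, and the mean of 1.57 ± 0.04 (SD, n = 2) passed with an adjusted p of 0.0241 in limma. *GSY2*, the major glycogen synthase gene, had a mean of 0.52 and an adjusted p of 0.0516. *GLG1*, encoding a glycogenin that primes glycogen, had 0.47 and 0.0870, and its paralog *GLG2* had a mean of -0.09. *GSY1*, the minor synthase gene, had 2.19 on the array of replicate 1 with a value but 0.51 and 0.30 in replicate 2, so that its mean of 1.29 rests on that 1 array. Of glycogen breakdown, *GDB1*, the debranching enzyme gene, had 1.46 and 1.11 in *ptc1 ptc6* replicate 2 only, and *GPH1*, the phosphorylase gene, had no value.

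Among the kinases that make glucose 6-phosphate, *GLK1* (glucokinase) had a mean of 1.23 ± 0.23 (SD, n = 2) in *ptc1 ptc6* and *HXK1* (hexokinase 1) one of 1.21 ± 0.40, with adjusted p of 0.0335 and 0.0412 in limma. *HXK2*, the main hexokinase gene on glucose, had a mean of 0.02. Both *HXK1* and *GLK1* were also high in *ptc6* replicate 1, where *HXK1* had 1.33 and 1.11 and *GLK1* 0.73 and 1.16. In *ptc6* replicate 2 *HXK1* had 0.12 and -0.10 and *GLK1* -0.28 and -0.09. Without *ptc1 ptc6* replicate 2, *HXK1* had 0.93 and no longer passed (adjusted p of 0.0860, with the spread from *ptc6* alone).

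Of the other UDP-glucose users, *GSC2*, which encodes the stress-inducible subunit of the cell wall glucan synthase, had 1.15 and 1.21 in *ptc1 ptc6* replicate 1 and 1.61 and 1.69 in replicate 2, with an adjusted p of 0.0228 in limma. Its paralog *FKS1*, encoding the subunit used in growing cells, was between 0.26 and 0.52 (adjusted p of 0.0752). *ALG5*, which acts in protein glycosylation, had a mean of -0.42 (adjusted p of 0.0541). Within each *ptc1 ptc6* array *GSC2* exceeded *FKS1* by 0.84 to 1.36. Among the trehalase regulators, *DCS1*, a negative regulator of Nth1, had a mean of 0.72 ± 0.32 (SD, n = 2) with an adjusted p of 0.0355, which was lost in the same setting (adjusted p of 0.234). *DCS2*, *BMH1* and *BMH2*, the other regulators measured, had means of 0.37, 0.17 and 0.10, and *MAL11*, a trehalose transporter gene, had no value.

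**Figure D4:**
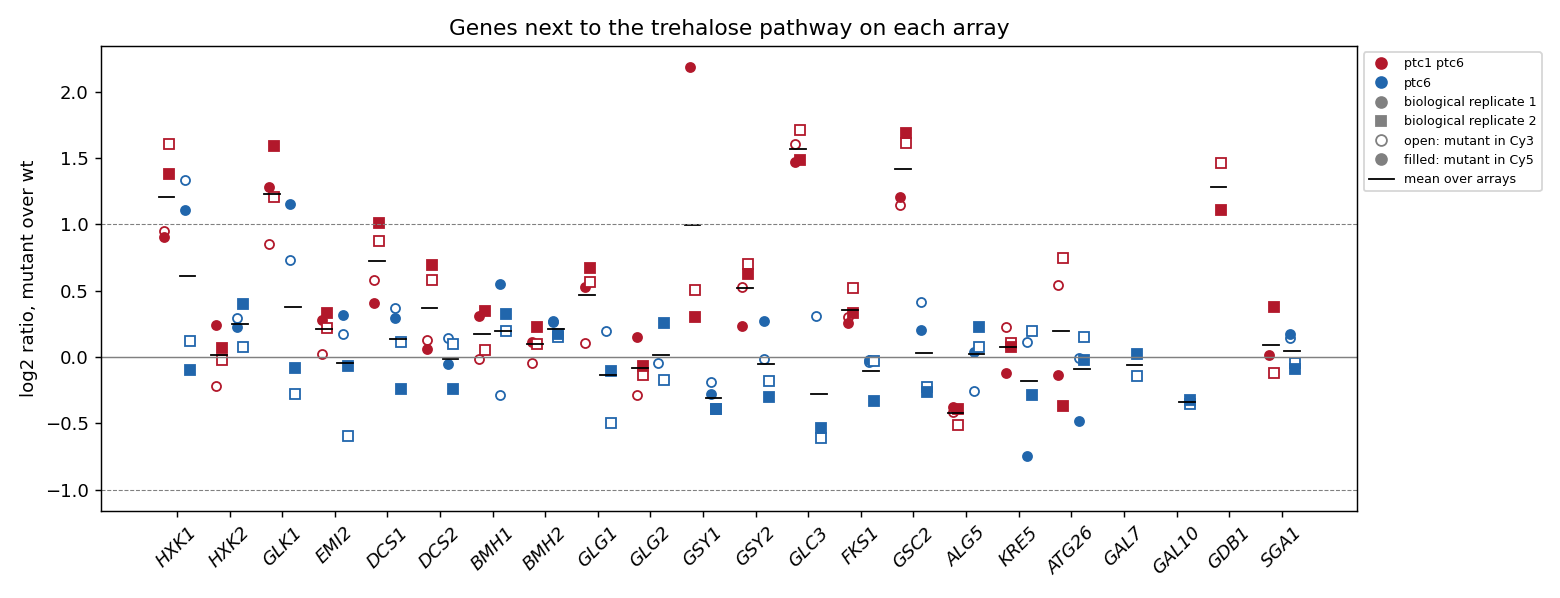
Log2 ratio of mutant over wt on each array for the listed genes next to the trehalose pathway that had values, *ptc1 ptc6* in red and *ptc6* in blue, with circles for biological replicate 1, squares for replicate 2, open for the mutant in Cy3 and filled for the mutant in Cy5. *GLC3* and *GSC2* lie above 1 on each *ptc1 ptc6* array. *HXK1* lies above 1 on both arrays of *ptc6* replicate 1, but at 0.95 and 0.90 in *ptc1 ptc6* replicate 1.

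As a description of likeness, each gene with values on 8 arrays was set against the 3435 other genes with values on 8 arrays by the root mean square difference of the log2 ratios. Nearest to *PGM2* were *PRM5* (0.16), *YOR289W* (0.24) and *PST1* (0.25), where the median over all genes was 1.42. Nearest to *TPS1* were *IDH2* (0.14), *SDH8* and *PNC1* (0.16 each), with a median of 0.67. Nearest to *TPS2* were *DIA1* (0.09), *ATP12* (0.14) and *FPT1* (0.15). *TPS3* was nearest to *AAD3* (0.08), *NTH1* to *STR2* (0.08), *PGM1* to *ERG10* (0.10) and *UGP1* to *SKN7* (0.07). No gene of the pathway was among the 3 genes nearest to another, but *TSL1*, *NTH2* and *ATH1* lacked values on 8 arrays and could not be compared.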

How the data were processed

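Total RNA of a mutant and of wt was labelled as cDNA with Cy3 or Cy5 and hybridised to the same array, with the dyes exchanged in a second array of each biological replicate. Per the study's methods, the authors scanned the arrays with a ScanArray 4000, read them with GenePix Pro 6.0, left out spots under 120 µm or 150 intensity units, and pre-processed the data with GEPAS 3.0. The deposited values are log2 ratios, taken as mutant over wt. The direction was checked on the deleted genes, and the base follows from the methods' 2-fold rule. Within-array normalization is not given in the sources used here, nor were channel intensities used, so the precision behind a ratio is known only from its replicates. Gene names came from the RefSeq table of yeast genes, which named 5662 of 6212 ORFs.

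The 2 arrays of a biological replicate were averaged, and the 2 replicates of each mutant were tested with limma 3.58.1 in R 4.3.3 in 1 fit over both mutants, with Benjamini-Hochberg adjustment over all genes with a value in each replicate and a threshold of 0.05. The labels call these biological replicates but do not say whether they share a wt culture. In limma the spread of each gene is shared by both mutants and drawn partly from all genes. An SD is that of the 2 replicate means alone. The 2-fold rule needed at least 2 arrays with a value and a mean of at least 1 or at most -1. Genes named are all 10 members, genes of the list of 24 neighbours, PTC1 and PTC6, stress genes given beside the results, and the nearest 3 or fewer genes by likeness. The scripts were tested on simulated data. The members, lists and tests were chosen with earlier results of these data known. Alternatives changed the centring, filter, dye, prior, block or replicates used.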

Additional observations from a re-analysis of the deposited data

Results flagged for a closer look

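*TSL1* was above 0 on all 4 *ptc1 ptc6* arrays and below 0 on both *ptc6* arrays with a value, with a mean difference of 1.92 on the log2 scale. The difference was not tested, since *ptc6* replicate 1 had no value for *TSL1*. *GSY1* and *FKS1*, both next to the pathway, showed the same contrast of signs, with mean differences over arrays of 1.31 and 0.46. For these 2 genes the fitted differences did not pass in limma (adjusted p of 0.136 and 0.144). The share of all genes with this contrast of signs was not counted. A looser rule, every *ptc1 ptc6* array above every *ptc6* array, was met by 5.36% of 3436 genes with 8 values.

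*FKS1* also had 1 *ptc6* array far from the other 3, at -0.33 with the mutant in Cy5 in replicate 2, against -0.034 to -0.02 on the others. Over the 48 groups of 4 arrays searched, 2.4 such arrays are expected by chance.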

How the results depend on the processing

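The *PGM2* and *TSL1* calls in *ptc1 ptc6* held in 9 of 9 and 7 of 7 distinct alternative fits, since fitting a mutant alone and leaving out either replicate of the other mutant are 1 fit. Where a replicate was left out, its mutant had 1 replicate, assumed to vary like those of the other mutant. With 2 replicates a mutant, intervals are wide, and *TSL1* had no test when a *ptc1 ptc6* replicate was left out. The lists of neighbours and the crossed pairing were added after the data were seen.

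In *ptc1 ptc6* 649 genes passed (259 higher, 390 lower). Centring each array gave 567 (303 higher, 264 lower), a random block per biological replicate 1349, Cy3 arrays alone 415, and leaving out a replicate 136 to 849. Members passing, 2, became 5 with the random block and 1 to 3 without a replicate. In *ptc6* 0 genes passed, against 8 with the random block, 10 with each mutant fitted alone, 2 and 1 with Cy3 or Cy5 arrays alone, and 0 to 10 without a replicate. No member ever passed there. Between the mutants 9 genes passed, 5 with values on 4 of 4 arrays, 744 with the random block, 41 with Cy5 arrays alone and 0 to 155 without a replicate. Members passing, 0, became 2 with the random block and 0 to 1 without a replicate. With the replicate number as a replicate block, 268 genes and 1 member (*PGM2*) passed, and with crossed numbers 482 and 1. The deviations of same-numbered replicates from their group means had r = -0.21 across genes. Genes are not independent replicates, so this r cannot decide whether the numbers pair samples.

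By the 2-fold rule, 94 genes in *ptc1 ptc6* became 53 where each replicate had to pass and 96 to 169 without a replicate. Members, 2, became 1 and 1 to 2. The 3 genes of *ptc6* became 8 to 32 without a replicate.

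Signs turned only near 0 or between replicates. Leaving out replicates gave, in *ptc1 ptc6*, -0.10 to 0.32 for *NTH1* and -0.18 to 0.021 for *UGP1*. In *ptc6* it gave -0.35 to 0.43 for *TPS1*, -0.46 to 0.15 for *TPS2*, -0.16 to 0.047 for *NTH1*, -0.48 to 0.72 for *PGM2* and -0.17 to 0.026 for *UGP1*. With Cy3 arrays alone *TPS1* was -0.10 and *TPS3* 0.0535 in *ptc6*. Between the mutants, leaving out replicates gave -0.0445 to 0.38 for *NTH1* and -0.11 to 0.094 for *UGP1*, which was 0.0629 after centring. The cause was not tested.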
